A study of Sus scrofa with 31 samples.

Results

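DMP1 (ENSSSCG00000009220), the gene of dentin matrix acidic phosphoprotein, was examined as 1 of 31907 genes counted in pig microglia, macrophages and brain tissue. It is a minus-strand gene on pig chromosome 8 (Sscrofa11.1, chr8:131285238-131319398). The gene was selected on its measured levels in these same libraries, so its values and its differences between groups are given as a description, without a test. Tests of differences between groups are given only for other genes.

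RNA was sequenced from 31 samples of 15 pigs, counted by the tag numbers in the labels. Microglia, the resident macrophages of the brain, were sorted as CD11b high cells with low CD45 from 3 regions (cerebellum, hippocampus and frontal cortex, 8 samples per region). F4/80+ cells with low CD163 were sorted from lung lavage as alveolar macrophages (n = 3), and hippocampal tissue was taken whole (n = 4). The animals were male piglets of a commercial cross of Large White and Landrace sows with Danish Duroc boars, in the fourth week of life. Several libraries came from the same animal, which allowed DMP1 to be compared within pigs.

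DMP1 is an acidic, heavily phosphorylated protein that osteocytes and odontoblasts secrete into the matrix of bone and dentin. It binds calcium and takes part in mineralization, and loss of the gene in humans causes a hereditary hypophosphataemic rickets. It belongs to a family of integrin-binding, phosphorylated glycoproteins whose genes lie next to each other, with SPP1 (osteopontin), IBSP (bone sialoprotein), MEPE and DSPP as the other members. Microglia are not a textbook site of DMP1 expression.

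The coding sequences of the family members, read from the RefSeq annotation of Sscrofa11.1, share the codons for arginine, glycine and aspartate, the tripeptide that integrins recognise. They are shown for DMP1 and for the members that had a row in the count table, because the integrin and kinase genes described below act on this tripeptide and on the serines of these proteins. Capitals mark the codons of the tripeptide, and each stretch is coding sequence of the minus strand, from chr8:131286714-131286752 (DMP1), chr8:131079308-131079346 (SPP1), chr8:131208878-131208916 (IBSP) and chr8:131187710-131187748 (MEPE).
DMP1: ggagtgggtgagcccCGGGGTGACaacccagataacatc
SPP1: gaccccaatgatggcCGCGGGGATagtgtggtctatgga
IBSP: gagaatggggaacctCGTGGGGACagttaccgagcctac
MEPE: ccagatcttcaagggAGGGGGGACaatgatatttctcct
The predicted DMP1 protein had 510 residues, of which 19.8% were serine and 27.5% aspartate or glutamate. It held 41 sites with serine, any residue and glutamate (S-x-E), the sequence that the secretory kinase FAM20C phosphorylates. SPP1 had 23 such sites in 303 residues, IBSP 7 in 316 and MEPE 5 in 554.

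DMP1 was expressed in every microglia library, at levels that differed between brain regions. Levels are given as CPM, the counts of a gene scaled to the library's total over tested genes and normalised by the trimmed mean of M values (TMM). In the 8 cerebellar samples DMP1 ranged from 423 to 1050 CPM with a median of 597 CPM, and the mean was 632 ± 190.5 CPM (SD). In the 8 hippocampal samples the range was 139 to 469 CPM with a median of 375 CPM, and the mean was 352 ± 115 CPM. In the 8 frontal cortex samples the range was 117 to 378 CPM with a median of 168 CPM, and the mean was 188 ± 82.0 CPM. Cerebellar microglia therefore held the highest levels, and every cerebellar sample lay above every frontal cortex sample.

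The other groups held far less DMP1. In the 4 hippocampal tissue samples it was at 26.9, 34.5, 38.66 and 41.1 CPM. In the 3 alveolar macrophage samples it was at 12.5, 19.0 and 19.5 CPM. Neither group overlapped with any microglia sample, and every tissue sample lay above every macrophage sample. The lowest count of DMP1 in any library was 443, in an alveolar macrophage sample, where the exact Poisson interval (95%) had a mean half-width of 9.43% of the count. This interval covers counting error only, and total counts per library ranged from 18438494 to 43477403.

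**Figure D1:**
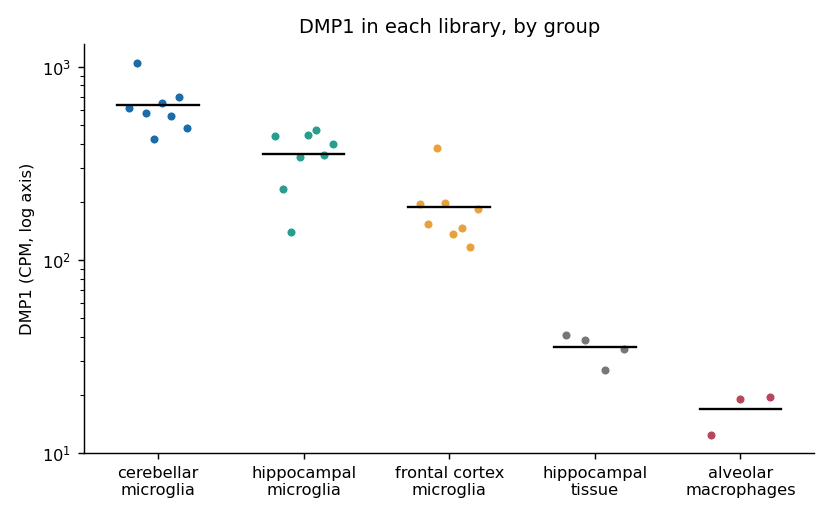
DMP1 in CPM on a log axis, with 1 point for each library and a line at the mean of each group. Cerebellar, hippocampal and frontal cortex microglia (n = 8 each) descend from a mean of 632 to 352 and 188 CPM, with hippocampal tissue (n = 4, 35.3 CPM) and alveolar macrophages (n = 3, 17.0 CPM) below all of them.

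The order of the levels was thus cerebellar, hippocampal and frontal cortex microglia, hippocampal tissue and alveolar macrophages. The neighbours in this order overlapped only among microglia. Cerebellar exceeded hippocampal samples in 61 of 64 pairs, and 1 cerebellar sample, of pig 12758 at 423 CPM, lay within the hippocampal range. Hippocampal exceeded frontal cortex samples in 55 of 64 pairs, with 4 of 8 hippocampal samples above all frontal cortex samples. The overlap came from the hippocampal sample of pig 12781 (139 CPM), that of pig 12758 (232 CPM) and the frontal cortex sample of pig 12720 (378 CPM), together with 2 hippocampal samples at 340 and 349 CPM that lay below the latter.

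In the edgeR fit over all 5 groups, DMP1 was 20.4-fold higher in microglia, as the mean of the 3 regions, than in alveolar macrophages (log2 difference 4.35, SE 0.40). It was 9.96-fold higher in hippocampal microglia than in hippocampal tissue (log2 difference 3.32, SE 0.34). Between regions it was 3.36-fold higher in cerebellar than in frontal cortex microglia (log2 difference 1.75, SE 0.24), 1.80-fold higher in cerebellar than in hippocampal microglia (0.85, SE 0.23) and 1.87-fold higher in hippocampal than in frontal cortex microglia (0.90, SE 0.23). Ordered by log2 difference among the 11633 tested genes, DMP1 stood at place 121 for cerebellar against frontal cortex microglia, 106 for hippocampal against frontal cortex microglia and 1456 for cerebellar against hippocampal microglia. It stood at place 781 for microglia against macrophages and at place 664 for hippocampal microglia against tissue. The microglia comparisons share samples, and the places describe the gene that was selected.

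Within pigs the regional order was the same in each animal with more than 1 region. In the 6 pigs with cerebellar and frontal cortex microglia, DMP1 was higher in the cerebellum in 6 of 6, by 2.65-fold to 5.96-fold (mean log2 difference 1.92 ± 0.48, SD). In the 4 pigs with cerebellar and hippocampal microglia it was higher in the cerebellum in 4 of 4, by 1.32-fold to 1.83-fold (0.62 ± 0.20). In the 3 pigs with hippocampal and frontal cortex microglia it was higher in the hippocampus in 3 of 3, by 1.70-fold to 2.40-fold (1.06 ± 0.26). The 3 pigs with all 3 regions therefore each gave the same descending order, for example 579, 438 and 197 CPM in pig 12750. Of the samples behind the overlap between hippocampal and frontal cortex microglia, those of pigs 12781, 12720 and 12817 (340 CPM) were the only microglia samples of their animals.

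The difference between hippocampal microglia and hippocampal tissue varied least. In the 4 pigs with both, it was 10.8-fold, 11.6-fold, 12.1-fold and 12.99-fold (mean log2 difference 3.57 ± 0.11). For alveolar macrophages, pig 12821 had 12.5 CPM against 445 CPM in its hippocampal and 649 CPM in its cerebellar microglia. Pig 12829 had 19.0 CPM against 469 CPM in its hippocampal microglia.

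**Figure D2:**
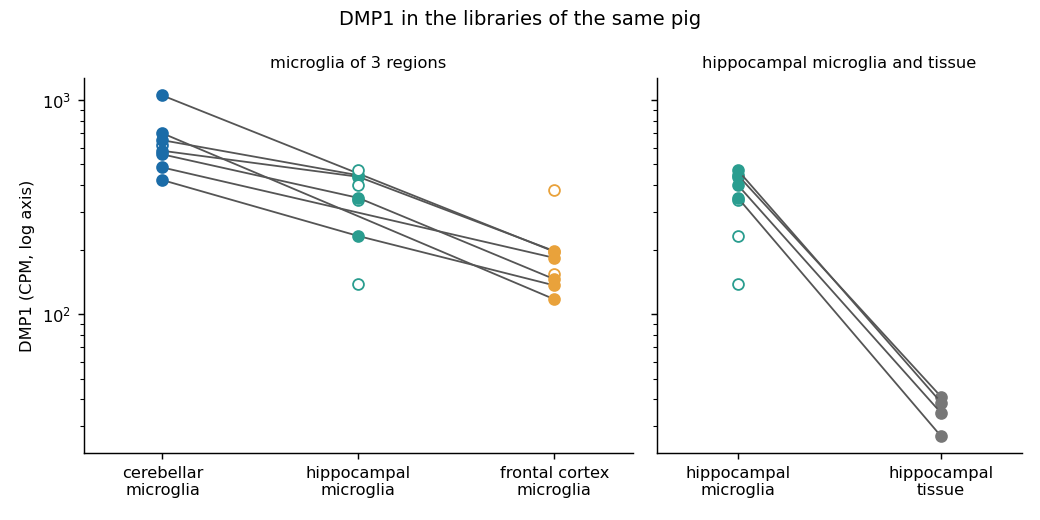
DMP1 in CPM on a log axis, with lines joining libraries of the same pig, filled points for pigs with more than 1 library in the panel and open points for pigs with 1. The left panel shows microglia of 3 regions and the right panel hippocampal microglia with hippocampal tissue; no line rises from cerebellum to hippocampus to frontal cortex, and the 4 lines to tissue are nearly parallel, at 10.8-fold to 12.99-fold.

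The labels were checked against markers. Of the 13 microglia markers reported, including P2RY12, TMEM119 and CX3CR1, 13 were more highly expressed in microglia than in alveolar macrophages and 13 were more highly expressed in hippocampal microglia than in hippocampal tissue, and 0 of 13 differed between the regions in edgeR (0 also in DESeq2 and limma-voom, and 4 at an unadjusted p under 0.05). With thresholds of 0.01 for the adjusted p and 3 for the fold, 12.2% of tested genes were higher in microglia than in macrophages, and with a fold threshold of 4, 11.7% were higher in hippocampal microglia than in tissue. The F test over the 3 regions, with no threshold on the fold change, called 2.03%. At that share, no call among 13 genes says little about the markers, and DMP1 was not set against them by a test.

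Hippocampal tissue held 10.04% of the mean DMP1 level of hippocampal microglia. The median of the 13 microglia markers was 3.02%, and 2 of them (SALL1 and OLFML3) lay above DMP1. Alveolar macrophages held 4.83% of the DMP1 level of hippocampal microglia, and 8 of the 13 markers lay above that. In bulk samples such as tissue, fewer cells of a type and less RNA per cell cannot be told apart. The macrophage libraries also held markers of T and B cells. The sum of 5 such markers was 514 to 1013 CPM there, against at most 73.4 CPM in microglia. Markers of alveolar and border macrophages (9 genes) summed to 688 to 1206 CPM in the same libraries. The part of other cells in the macrophage levels of DMP1 and the listed genes was not tested.

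**Figure D3:**
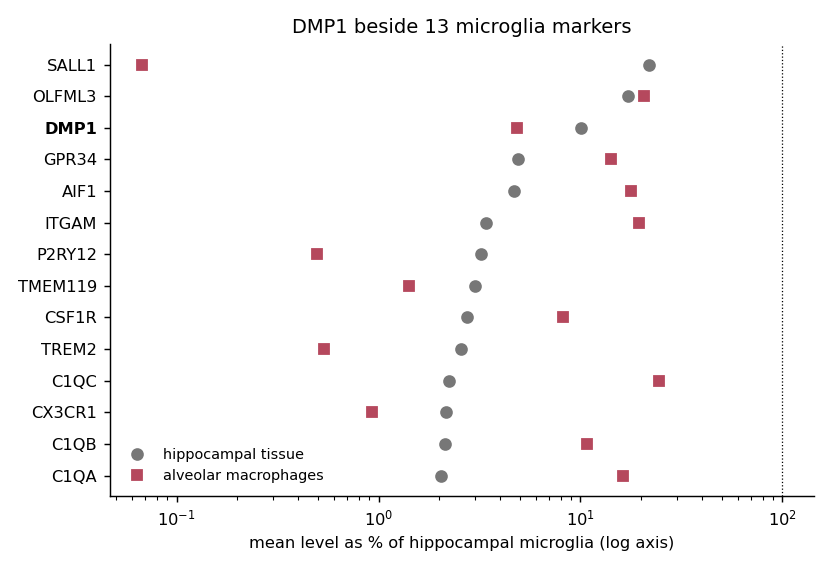
Mean level in hippocampal tissue (circles) and in alveolar macrophages (squares) as a percentage of the mean in hippocampal microglia, on a log axis, for DMP1 and 13 microglia markers ordered by the tissue value. DMP1 lies at 10.04% in tissue and 4.83% in macrophages, with 2 markers above it in tissue; the dotted line marks 100%.

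Markers of other brain cells were detected in the sorted microglia. The sum of 6 oligodendrocyte markers was 168.5 to 830 CPM in cerebellar, 165 to 456 CPM in hippocampal and 181.5 to 1921 CPM in frontal cortex microglia, against 12230 to 23980 CPM in tissue, and its highest value was in the frontal cortex library of pig 12599. The sum of 7 astrocyte markers was 194.5 to 499 CPM in microglia, against 5029 to 6198 CPM in tissue. Alveolar macrophages, sorted from lung lavage, held 151 to 273 CPM of the oligodendrocyte sum and 135.6 to 173.5 CPM of the astrocyte sum. These 2 sums were therefore well above 0 in cells from outside the brain as well. The sum of 5 fibroblast markers was 131 to 619 CPM in microglia, against 209 to 399 CPM in tissue. That sum was mostly COL1A2, and without this gene the other 4 markers summed to at most 107 CPM in microglia, against 139 to 262 CPM in tissue. The sum of 8 neuron markers was 14.5 to 190 CPM in cerebellar, 3.33 to 49.4 CPM in hippocampal and 12.7 to 193 CPM in frontal cortex microglia, against 3136 to 3836 CPM in tissue. It exceeded 100 CPM in 4 microglia libraries, the cerebellar libraries of pigs 12583 and 12902 and the frontal cortex libraries of pigs 12599 and 12891, and 1 of the 8 markers (RBFOX3) was called between regions. Without these 4 libraries the log2 difference of DMP1 between cerebellar and frontal cortex microglia was 1.73. The sum of 8 markers of cerebellar neurons and Bergmann glia was 13.2 to 143 CPM in cerebellar microglia and at most 55.6 CPM in the other regions. The cerebellar library with the highest sum, of pig 12902, had the second lowest DMP1 of its group (484 CPM). That of pig 12583, with a sum of 95.1 CPM, had DMP1 at 614 CPM, above the group median of 597 CPM. Cerebellar tissue was not analysed here. Over the 24 microglia libraries, which share pigs and normalisation, the Pearson correlation of log2 DMP1 was -0.03 with the neuron sum, -0.24 with the oligodendrocyte sum, 0.46 with the astrocyte sum, -0.21 with the fibroblast sum, -0.07 with the sum of the 13 microglia markers and -0.21 with total counts. With region means removed, these coefficients were -0.38, -0.09, 0.20, 0.31, 0.57 and 0.42. For the sum of cerebellar neuron and Bergmann glia markers the coefficient was 0.33, and -0.26 with region means removed. For the sum of alveolar and border macrophage markers it was -0.43, and 0.11 with region means removed. Single astrocyte markers differed in their coefficient over the 24 libraries. It was 0.61 for SLC1A3, 0.105 for GJA1, 0.05 for GFAP, -0.18 for ALDOC, -0.46 for AQP4 and -0.49 for SLC1A2. Of these 6, SLC1A3 alone was not called lower in hippocampal microglia than in tissue. The part of all these marker sums in the level of DMP1 was not tested.

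Within the gene family, DMP1 had the highest mean level in each microglia group per length of the curated transcript. Per kilobase of the curated RefSeq transcript, DMP1 was at 236 ± 71.1 CPM in cerebellar, 131 ± 42.8 CPM in hippocampal and 70.3 ± 30.6 CPM in frontal cortex microglia (SD, n = 8 each). SPP1 had means of 78.3, 26.4 and 25.1 CPM per kilobase in the same groups. DMP1 exceeded SPP1 on this scale in each of the 24 microglia samples, by 1.14-fold at the least, whereas in tissue it was lower in 4 of 4, at 13.2 against 21.7 CPM per kilobase. With the union of all annotated exons as the length, the DMP1 mean fell to 82.6 CPM per kilobase in cerebellar microglia against 72.9 for SPP1, since that union spans 7656 bases in DMP1 against 2679 in the curated transcript. On that length DMP1 exceeded SPP1 in 18 of 24 microglia samples (6 of 8 cerebellar, 7 of 8 hippocampal and 5 of 8 frontal cortex samples), with ratios from 0.43 to 3.47, so the order of the 2 genes depended on the length used. The annotated DMP1 and DSPP genes overlap on the same strand, and DSPP had no identifier in the count table, so reads shared between the 2 genes could not be assigned.

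IBSP and MEPE were close to 0, with a mean of at most 0.21 and 0.35 CPM in any group, and were not tested. SPP1 is a secreted phosphoprotein that macrophages and osteoblasts make. In cerebellar microglia it ranged from 60.7 to 303 CPM (median 83.3), in hippocampal microglia from 19.5 to 60.8 CPM (median 37.3) and in frontal cortex microglia from 12.4 to 55.6 CPM (median 34.8). It was higher in microglia than in alveolar macrophages (log2 fold change 2.80, SE 0.53, adjusted p = 4.71e-05), but did not pass the test for hippocampal microglia against tissue (0.28, SE 0.42, adjusted p = 0.554). It differed between regions (adjusted p = 0.0026), with cerebellar microglia above frontal cortex microglia (1.64, SE 0.35, adjusted p = 0.00518). This regional call was lost without the cerebellar library of pig 12821, where SPP1 was at 303 CPM (adjusted p = 0.012), and with the pig as a block (adjusted p = 0.0102). SPP1 and DMP1 were thus both highest in the cerebellum, but DMP1 at 649 CPM was not extreme in the library where SPP1 was.

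Of the other protein-coding genes beside DMP1, PKD2, a cation channel of primary cilia, was higher in microglia than in macrophages (log2 fold change 7.43, adjusted p = 8.57e-17), with 83.8, 88.5 and 86.3 CPM in cerebellar, hippocampal and frontal cortex microglia, and did not pass the regional test (adjusted p = 0.945). SPARCL1, a matricellular glycoprotein of astrocytes, was lower in hippocampal microglia than in tissue (log2 fold change -6.03, adjusted p = 2.65e-14), at 26.9 against 1751 CPM. Neither neighbour showed the regional gradient of DMP1. LOC110255210, NUDT9, LOC100520923 and HSD17B13 were not analysed here.

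The proteins that process, phosphorylate or bind DMP1 came next. Of 14 such genes with an identifier, 9 were tested. FAM20A, FAM20C, ITGAV, ITGB5 and MMP2 (5 of 9) were higher in microglia than in alveolar macrophages and CD44 (1 of 9) was lower, with 12.2% and 10.1% of all tested genes called in these directions. In hippocampal microglia against tissue, FAM20A and MMP2 (2 of 9) were higher and the protease BMP1 (1 of 9) was lower, against 11.7% and 22.1% of all tested genes. The rule for testing a gene was a level above 10 CPM in each sample of some group. CD44 met it only in macrophages, BMP1 only in tissue and FAM20A only in microglia, so the direction of their calls was largely set by that rule. FAM20C, ITGAV, ITGB5 and ITGB1 were also above tissue at an adjusted p under 0.01, but below the fold threshold of 4. Their log2 fold changes were 1.53, 1.39, 1.42 and 0.72. ITGAV and ITGB5, which form an integrin that binds the tripeptide shown above, were at 271 ± 26.5 and 205 ± 33.5 CPM in hippocampal microglia (SD, n = 8), while ITGB3, another integrin chain that pairs with ITGAV, was at most 1.91 CPM in any microglia library and was not tested. ITGB1, which also pairs with ITGAV, had means of 139, 172 and 207 CPM in cerebellar, hippocampal and frontal cortex microglia. In alveolar macrophages it was at 505 CPM, so microglia were lower (log2 fold change -1.57, SE 0.14, adjusted p = 1.19e-10). That difference fell just short of the fold threshold of 3.

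FAM20C, the kinase of the S-x-E sites, followed DMP1 across regions. It was at 162 to 461 CPM in cerebellar (median 226), 105 to 196 CPM in hippocampal (median 173) and 49.5 to 136 CPM in frontal cortex microglia (median 110). Every cerebellar sample lay above every frontal cortex sample. FAM20C differed between regions (adjusted p = 0.000429) and the other 8 tested partner genes were not called, against 2.03% of all tested genes. Cerebellar exceeded frontal cortex microglia by 1.34 on the log2 scale (SE 0.20, adjusted p = 0.000131). With the pig as a block this regional call was lost (adjusted p = 0.0106), while the cerebellar sample was the higher in 6 of 6 pigs. Its Pearson correlation with DMP1 over the 24 microglia samples was 0.74 (Spearman 0.77), and Pearson's coefficient was 0.22 after the mean of each region was removed. Against alveolar macrophages FAM20C was higher (2.22, SE 0.29, adjusted p = 1.86e-07), and FAM20A, its activating partner, was also higher (4.84, SE 0.41, adjusted p = 3.27e-11).

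**Figure D4:**
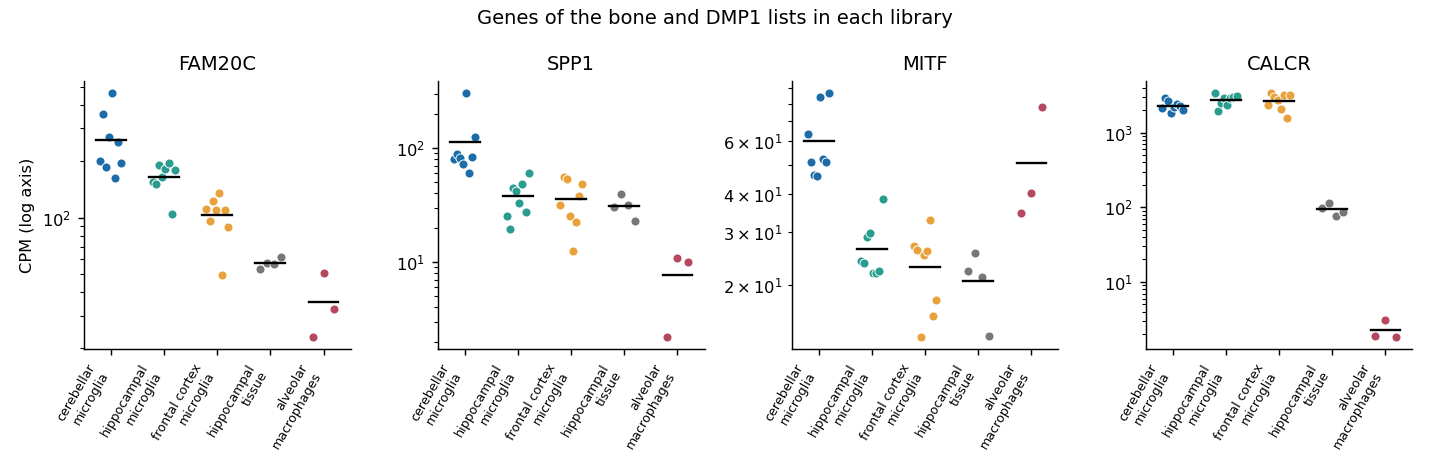
FAM20C, SPP1, MITF and CALCR in CPM on log axes, with 1 point for each library and a line at the group mean. FAM20C descends from cerebellar to hippocampal and frontal cortex microglia, SPP1 and MITF are highest in cerebellar microglia among the brain regions, and CALCR lies at 1561 CPM or above in all microglia and at most at 3.12 CPM in alveolar macrophages.

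Osteoblast and osteocyte genes did not move in a single direction beside DMP1. Of 14 osteoblast and osteocyte genes with an identifier, 9 were tested. COL1A2, PDPN and ANKH (3 of 9) were higher in microglia than in macrophages and CAPG, ENPP1 and RUNX2 (3 of 9) were lower, against 12.2% and 10.1% of all tested genes, and the call of ANKH was lost in 10 of 27 fits that left out 1 library. By contrast, in hippocampal microglia against tissue COL1A2 (1 of 9) was higher and ALPL, ANKH, CAPG, COL1A1, ENPP1 and SPARC (6 of 9) were lower, against 11.7% and 22.1%. ALPL, COL1A1 and SPARC met the rule for testing only in tissue, so the direction of these calls was largely set by that rule. CAPG and ENPP1 met it only in macrophages, so their lower calls against macrophages were largely set by it. In hippocampal microglia and tissue, CAPG was at most at 0.524 and 1.875 CPM and ENPP1 at 1.946 and 6.251 CPM. Each had at most 3 counts in 5 of 8 hippocampal microglia samples. RUNX2, the transcription factor of osteoblast fate, was at 13.45 to 28.8 CPM as the mean of each microglia region and at 195 CPM in alveolar macrophages. The osteocyte gene SOST had a mean of 0 CPM in each of the 3 microglia groups, and ALPL, the alkaline phosphatase of mineralizing cells, was at most at 0.64 CPM. COL1A2, a chain of type I collagen, stood at 284, 530 and 386 CPM in cerebellar, hippocampal and frontal cortex microglia, while COL1A1, the other chain, was at 13.6, 0.32 and 12.1 CPM. Without the highest library of each group these means of COL1A1 were 8.71 CPM (cerebellar, without pig 12583 at 47.7 CPM), 0.22 CPM and 2.06 CPM (frontal cortex, without pig 12891 at 82.5 CPM).

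Genes of osteoclasts, the bone-resorbing relatives of macrophages, were mixed in microglia. ACP5, DCSTAMP, OCSTAMP and ATP6V0D2 were near 0, with means of 0.17, 0.44, 0.08 and 0 CPM over all microglia. Of 11 osteoclast genes with an identifier, 7 were tested. In hippocampal microglia against tissue CALCR, NFATC1, TCIRG1 and TNFRSF11A (4 of 7) were higher and 0 of 7 lower, against 11.7% and 22.1% of all tested genes. Against macrophages CALCR (1 of 7) was higher and ACP5 (1 of 7) lower, close to the 12.2% and 10.1% of all tested genes. ACP5 met the rule for testing only in macrophages, so the direction of its call was largely set by that rule. NFATC1 and TCIRG1 had means of 214 and 99.6 CPM in macrophages, against 178 and 55.5 CPM in hippocampal microglia. TNFRSF11A was at 25.9 CPM in macrophages, against 56.8 CPM in hippocampal microglia. CALCR, the calcitonin receptor, had a mean of 2318 ± 350 CPM in cerebellar, 2769 ± 463 CPM in hippocampal and 2687 ± 640 CPM in frontal cortex microglia, against 93.8 ± 16.1 CPM in tissue and 2.28 ± 0.73 CPM in macrophages (log2 fold change 10.14, SE 0.35, adjusted p = 1.51e-19). It did not pass the regional test (adjusted p = 0.418). MITF, a transcription factor of osteoclasts and pigment cells, did (adjusted p = 4.67e-05, 0.00693 with the pig as a block). Its range was 46.1 to 86.7 CPM in cerebellar microglia, above the 21.9 to 38.6 CPM in hippocampal and the 13.4 to 32.8 CPM in frontal cortex microglia, and hippocampal and frontal cortex samples overlapped.

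Among genes of phosphate and calcium handling, 5 of 9 with an identifier were tested. FGFR1 (1 of 5), a receptor for the phosphate hormone FGF23, was higher in microglia than in macrophages (log2 fold change 6.83, SE 0.36, adjusted p = 8.36e-16). The vitamin D receptor VDR (1 of 5) was lower, against 12.2% and 10.1% of all tested genes in these directions. VDR met the rule for testing only in macrophages, so the direction of its call was largely set by that rule. In hippocampal microglia against tissue 0 of 5 were higher and 0 of 5 lower, against 11.7% and 22.1% of all tested genes. FGFR1 and SLC20A1, a sodium-dependent phosphate transporter, differed between regions (adjusted p = 0.00644 and 0.00163). FGFR1 had means of 168, 130 and 89.95 CPM and SLC20A1 of 76.9, 75.0 and 50.2 CPM in cerebellar, hippocampal and frontal cortex microglia, and both kept their calls with the pig as a block (adjusted p = 0.00634 and 0.00269). In alveolar macrophages SLC20A1 was at 197 CPM, so microglia were lower (edgeR, log2 fold change -1.57, SE 0.12, adjusted p = 4.44e-12). That difference fell just short of the fold threshold of 3. Over all lists, 7 of the 31 tested genes other than DMP1 differed between regions, against 2.03% of all tested genes. Of these 7, 6 (SPP1, FAM20C, MITF, ENPP1, FGFR1 and SLC20A1) had their highest mean in the cerebellum. ENPP1 was near 0 in the other regions, with means of 0.56 CPM in hippocampal and 0.38 CPM in frontal cortex microglia. In cerebellar microglia its median was 4.06 CPM, and it met the rule for testing only in macrophages (mean 126 CPM). SLC20A1 did not differ between cerebellar and hippocampal microglia (edgeR, adjusted p = 0.906). The paper also reported cerebellar microglia as highest for most of its regional genes. That share was not computed here over all regional calls, so the count is not read as particular to the listed genes. With the pig as a block 3 of 31 were called. The calls of FGFR1 and COL1A2 were also lost when single libraries were left out, 13 and 17 of 24 respectively, that of ENPP1 without the cerebellar library of pig 12821 (adjusted p = 0.0119) and that of SLC20A1 without the frontal cortex library of pig 12720 (adjusted p = 0.0102).

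The genes whose levels resembled DMP1 most closely over the 24 microglia samples were SMAD7 (Pearson r = 0.90, Spearman 0.85), C3 (0.88 and 0.86), B3GNT3 (0.87 and 0.84), EDEM1 (0.87 and 0.85) and NAPSA (0.86 and 0.78), followed by LOC106507056, EMR4, FCRL1, BCL6 and MYCL. They were picked as the 10 highest genes with a symbol among 11632 genes, and 1 identifier without a symbol ranked among them, so the coefficients are a description, and the samples share pigs and normalisation. From the same microglia samples, the paper had already placed DMP1 with C3, NAPSA and BCL6 in a co-expression cluster that was higher in the cerebellum. SMAD7, an inhibitor of TGF-beta signalling, had means of 190 ± 42.9, 151 ± 22.5 and 129 ± 22.6 CPM in cerebellar, hippocampal and frontal cortex microglia, and C3, the central complement component, of 4830, 3471 and 2363 CPM. SMAD7 did not pass the regional test (adjusted p = 0.0164), and its log2 difference between cerebellar and frontal cortex microglia was 0.56 (SE 0.13), against 1.75 for DMP1. SMAD7 also followed DMP1 from sample to sample inside each region, with r = 0.78 in cerebellar, 0.91 in hippocampal and 0.96 in frontal cortex microglia (n = 8 each). C3 did so less in the hippocampus (r = 0.17).

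With the region means removed, SMAD7 again stood first (r = 0.84), before TLR9 (0.76), TNFAIP3 (0.76), LYSET (0.76) and ETS2 (0.74). ETS2, a transcription factor of the ETS family, ran opposite to DMP1 between regions, with means of 131, 177 and 244 CPM in cerebellar, hippocampal and frontal cortex microglia, but with it inside each of them (r = 0.93, 0.69 and 0.71). Its coefficient over all 24 samples was -0.46. The lowest coefficients over all 24 samples, among genes with a symbol, were those of TBC1D4 (-0.81), COL4A2 (-0.79), DLGAP2 (-0.77), MTSS1 (-0.76) and LMO7 (-0.76). COL4A2, a basement membrane collagen, had a mean of 18.0 CPM in cerebellar and 133 CPM in frontal cortex microglia, and the neuronal gene DLGAP2 was at 57.9 CPM in tissue and at most 7.79 CPM as the mean of a microglia region.

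**Figure D5:**
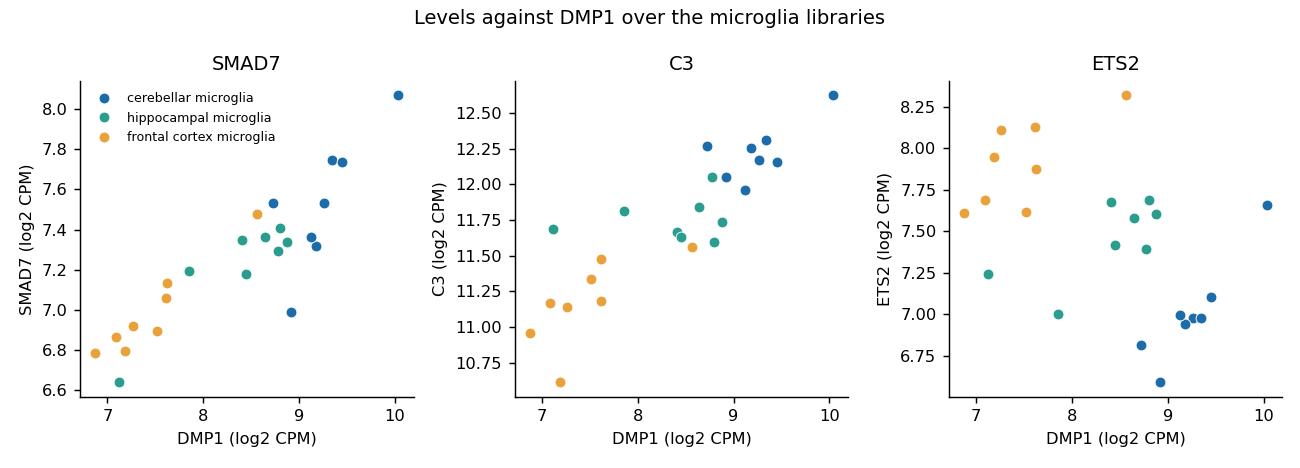
Levels of SMAD7, C3 and ETS2 against DMP1, both as log2 CPM, with 1 point for each of the 24 microglia libraries coloured by region. SMAD7 and C3 rise with DMP1 across all samples (r = 0.90 and 0.88), whereas ETS2 rises with DMP1 inside each region and falls between regions.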

How the data were processed

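Per the labels and the methods, the authors sequenced Takara SMARTer stranded total RNA libraries, aligned the reads to Sscrofa11.1 with HISAT2 and deposited StringTie counts per gene, without normalization. A gene was tested if each sample of some group exceeded 10 CPM before TMM, scaled to the total over all genes (11633 of 31907). Counts were fitted with edgeR 4.0.16 in R 4.3.3 (TMM, robust quasi-likelihood, 5 groups in 1 model, Benjamini-Hochberg adjustment over all tested genes), where the study's methods used limma-voom. Thresholds were an adjusted p of 0.01 and a fold of 3 (against macrophages) or 4 (against tissue), with none on the fold between regions. Standard errors come from the quasi-likelihood F statistic, and log2 CPM used a prior count of 2. DMP1, the gene lists and the tests were chosen with earlier results of these data known. Named were DMP1, listed genes, 5 neighbours on either side, and the 10 highest, 5 highest with region means removed and 5 lowest correlations with DMP1 among genes with a symbol. The microglia marker list was shortened after its values were seen, as 1 marker is not reported here, so counts over it describe the remaining 13. Symbols were found for 15556 identifiers. Replicate numbers are pig tags, so samples are paired by animal: the deviations of 25 same-pig pairs from their group means correlated by 0.079 on average, and by 0.125 for the 13 pairs of microglia. No samples of a group agreed within counting noise (lowest chi-square per degree of freedom 20.7). The scripts were tested on simulated data. Alternatives were RLE or no factors, other filters, DESeq2 1.42.0, limma 3.58.1, only the groups compared, a pig block and each library left out.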

Additional observations from a re-analysis of the deposited data

Results flagged for a closer look

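The highest or lowest sample lay far from the others of its group (Dixon's test) in 7 of 60 combinations of 15 genes named in the text with the groups of 4 to 8 samples. A chance rate of about 1 in 20 would need independent values of unselected genes. Here the genes share libraries and include DMP1, so the count is not read as an excess. For DMP1, which was selected on these values, the flags are a description. DMP1 was flagged in the cerebellar library of pig 12599, at 1050 CPM with the next sample at 699 CPM, and in the frontal cortex library of pig 12720, at 378.4 CPM with the next at 197 CPM. Without both libraries the log2 difference of DMP1 between cerebellar and frontal cortex microglia was 1.78, that between cerebellar and hippocampal microglia 0.75 and that between hippocampal and frontal cortex microglia 1.02. The sum of 13 microglia markers was the highest of the cerebellar group in the library of pig 12599 (12520 CPM). In the frontal cortex library of pig 12720 it was 12290 CPM, below the 12740 CPM in that of pig 12707. The part of these sums in the DMP1 level was not tested.

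The cerebellar library of pig 12821 was flagged for 3 genes, SPP1 at 302.9 CPM (next 125 CPM), ENPP1 at 32.48 CPM (next 12.03 CPM) and CD44 at 18.27 CPM (next 9.13 CPM), and its FAM20C of 461 CPM was the highest of all libraries, while its DMP1 of 649 CPM was exceeded in 2 cerebellar libraries. MITF was flagged in the hippocampal microglia of pig 12872, at 38.58 CPM with the next sample at 29.7 CPM. ITGB5 was flagged in the frontal cortex microglia of pig 12902, at 168.9 CPM with the next sample at 209.5 CPM.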

How the results depend on the processing

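The 5 log2 differences of DMP1 kept their direction and moved by less than the pooled SD within groups (0.478) under all alternatives run, from 4.18 to 4.72 for microglia against macrophages, 3.10 to 3.54 for hippocampal microglia against tissue, 1.60 to 1.94, 0.70 to 0.97 and 0.74 to 1.18 for cerebellar against frontal cortex, cerebellar against hippocampal and hippocampal against frontal cortex microglia. With the pig as a replicate block they were 4.72, 3.54, 1.90, 0.73 and 1.18. With filterByExpr and with no filter on low counts, 14 and 14 listed genes were lower in microglia than in macrophages in place of 6, and 13 and 14 were lower in hippocampal microglia than in tissue in place of 7; both filters admit more low genes. The block with pig as a fixed effect, with 12 residual degrees of freedom, left 3 of the 7 listed genes that differed between regions, and the random effect in limma-voom gave 8. Leaving out single libraries gave 4 to 8, with 4 without the frontal cortex library of pig 12720 and 4 without the cerebellar library of pig 12821, and these calls rest on such libraries. Of the 10 genes most like DMP1, 6 stayed among the first 10 with Spearman's coefficient, 6 without the 2 frontal cortex samples farthest from the median (117 and 136 CPM), 3 with pig means removed and 1 with region means removed. The cause was not tested. IBSP and MEPE were near 0, at 3 counts or fewer in at least 1 library of each group, whereas DMP1 had at least 443 counts in each library.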
